A study of Homo sapiens with 28 samples.

Results

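Nuclear receptors are transcription factors that bind small lipophilic ligands such as steroid hormones, retinoids, thyroid hormone, sterols and fatty acids, or act as orphans without a known ligand. Most share a zinc-finger DNA-binding domain that reads variants of the core motif AGGTCA, and a ligand-binding domain that exchanges corepressors for coactivators when the ligand is bound. Many of the non-steroid receptors bind DNA as heterodimers with a retinoid X receptor. Serous ovarian carcinoma is known for variable expression of the estrogen, progesterone and glucocorticoid receptors. Open chromatin at 43 receptor genes was followed here. A consensus peak was counted as belonging to a receptor if it overlapped the gene or the 10 kb on either side of it on GRCh38, and 361 of 105048 peaks met that rule, with at least 1 peak at each of the 43 genes. The genes held between 1 peak (RORB, NR4A3, NR1H4, NR1I2 and NR1I3) and 32 peaks (NR6A1), and RORA, THRB, ESRRG and RARB held 29, 28, 27 and 25.

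The peaks were counted by ATAC-seq, which cuts accessible DNA with a transposase, in 20 libraries of Kuramochi, an established BRCA2-mutant ovarian cancer line. There were 2 libraries for each of 10 populations. The labels do not say whether the libraries of a population came from separate cultures, so p-values measure the spread between these libraries, which may be technical. Untreated cells are called C. The 7 populations named T5 to T320 had adapted to 5, 10, 20, 40, 80, 160 or 320 uM of olaparib, an inhibitor of the DNA repair enzyme PARP, and were kept at that dose, and P10 and P320 were persisters, cells with no earlier drug exposure that were kept for 9 days in 10 or 320 uM. The untreated and adapted cells went through a sort by the surface proteins CD24 and CD44, in which the adapted ones were CD24 low and CD44 high. The labels mention no sorting of the persisters, so sorting cannot be told apart from exposure or adaptation in comparisons with them. The CD24 and CD44 profile kept in C is not stated, so a difference in the sorted profile cannot be told apart from adaptation in T against C. All populations come from 1 cell line and carry its BRCA2 mutation.

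Total counts in peaks ran from 9627970 to 29699950 per library. Levels below are in CPM, which are counts relative to the total of the library after scaling by the TMM method. Receptor loci took 0.313% and 0.320% of all counts in the C libraries, 0.391% and 0.396% in T320 and 0.333% and 0.335% in P320. Start peaks of serous ovarian epithelial markers were present for 8 of 9 genes, all except KRT7, and summed to 182 and 253 CPM in C, 136 and 158 in T320, and 328 and 325 in P320. Of these 8 markers 1 was gained (KRT18) and 4 were lost in T320 against C. Of the start peaks of all protein-coding genes 5.10% were gained and 4.98% lost in that comparison. Of the blood markers 1 of 6 had a start peak (SPI1), with PTPRC, CD3E, ITGAM, CD79A and GATA1 without one, and it stood at 10.4 and 13.7 CPM in C and 7.71 and 9.28 in T320. Fibroblast markers had 2 of 4, summing to 18.2 and 23.1 in C and 22.7 and 21.7 in T320, endothelial markers 2 of 4, with 13.8 and 13.8 in C and 4.97 and 3.36 in T320, and hepatocyte markers 1 of 3 (APOA1), with 19.0 and 25.7 in C and 4.28 and 1.21 in T320. All 4 neural markers had a start peak, summing to 28.1 and 32.5 CPM in C, 71.8 and 94.2 in T320 and 46.1 and 45.4 in P320, and 3 of them were gained in T320. The part of these marker changes in the receptor results was not tested. In bulk libraries a change in the share of cells open at a site and a change in openness per cell cannot be told apart.

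The comparison of each adapted population with C asks which receptor chromatin differs at each step of resistance. Gained and lost below mean that the log2 fold change was 1 or more in size, with a Benjamini-Hochberg adjusted p under 0.05 over all peaks (edgeR quasi-likelihood test). Many single peaks printed below were picked under a rule that excluded overlap between libraries of the compared groups. For the comparison that picked such a peak, the separation of its libraries describes the choice and is not a further finding. In T5, 16 of the 361 receptor peaks were gained and 20 lost, where 4.73% and 4.46% of all peaks were. In T10, 46 were gained and 24 lost (all peaks 8.51% and 9.22%). The numbers were 53 and 36 for T20 (11.2% and 13.3%), 63 and 26 for T40 (11.8% and 13.3%), 67 and 31 for T80 (12.3% and 13.6%), and 60 and 37 for T160 (11.0% and 12.5%). In T320, 84 receptor peaks (23.3%) were gained and 35 (9.70%) lost, beside 15.0% and 15.5% of all peaks. The median log2 fold change in T320 was 0.26 over the receptor peaks and -0.01 over all peaks. From T10 on, the receptor peaks held a larger share of gains and a smaller share of losses than all peaks. With the median log2 fold change of each 5 Mb window subtracted from its peaks, called the window shift below, 52 receptor peaks (14.4%) were gained and 36 (9.97%) lost in T320, beside 13.0% and 12.9% of all peaks. The gains were then 28, 36, 40, 45 and 38 in T10, T20, T40, T80 and T160 (7.76%, 9.97%, 11.1%, 12.5% and 10.5%), where 6.62%, 9.06%, 9.15%, 9.92% and 8.94% of all peaks were gained. The losses were 22, 35, 28, 31 and 37 in the same order (6.09%, 9.70%, 7.76%, 8.59% and 10.2%, beside 7.83%, 10.9%, 10.7%, 11.4% and 10.7%). In T5 the loss share (5.54%) and the gain share (4.43%) both lay near the background.

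Leaving out 1 library moved several of these counts by more than 1.5 times. T5 gained 8 without C replicate 2 and 4 without T5 replicate 2, and lost 9, 6 and 3 without C replicate 2, T5 replicate 1 and T5 replicate 2. T10 gained 26 without its replicate 2, and lost 11 without C replicate 2 and 13 without T10 replicate 2. T20 gained 34 and lost 21 without T20 replicate 2. Losses in T40 were 17 without C replicate 2, those in T80 20 without T80 replicate 2, and those in T160 21 without T160 replicate 2. In T320 no omission moved a count that far.

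The short exposures were compared with C in the same way. P10 gained 26 and lost 50 receptor peaks against C, where 9.32% and 12.8% of all peaks were gained and lost, and P320 gained 17 and lost 27 (3.94% and 7.91%). The median log2 fold change over the receptor peaks was -0.08 in P320, and -0.11 over all peaks. Set directly against the short exposure at the same dose, T10 had 78 receptor peaks gained and 39 lost against P10 (all peaks 17.8% and 15.1%). T320 had 101 gained and 35 lost against P320 (19.7% and 14.5%). T320 against P320 had 62 gained (17.2%) and 43 lost (11.9%) with the window shift removed, beside 16.8% and 12.3% of all peaks. T10 against P10 then had 56 gained (15.5%) and 51 lost (14.1%), beside 15028 and 15600 of all 105048 peaks. P10 against C then gained 34 (9.42%) and lost 32 (8.86%), beside 10151 and 11008 of all peaks, so its balance of directions turned. The gains of P10 were 43 without C replicate 1 and 17 without either C replicate 2 or P10 replicate 1, and its losses were 23, 32 and 33 without C replicate 2, P10 replicate 1 and P10 replicate 2. The losses of P320 were 13 and 9 without P320 replicates 1 and 2, and T10 against P10 had 17 losses without T10 replicate 2. T320 against C and P320 against C share the C libraries, so their values are given side by side.

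**Figure D1:**
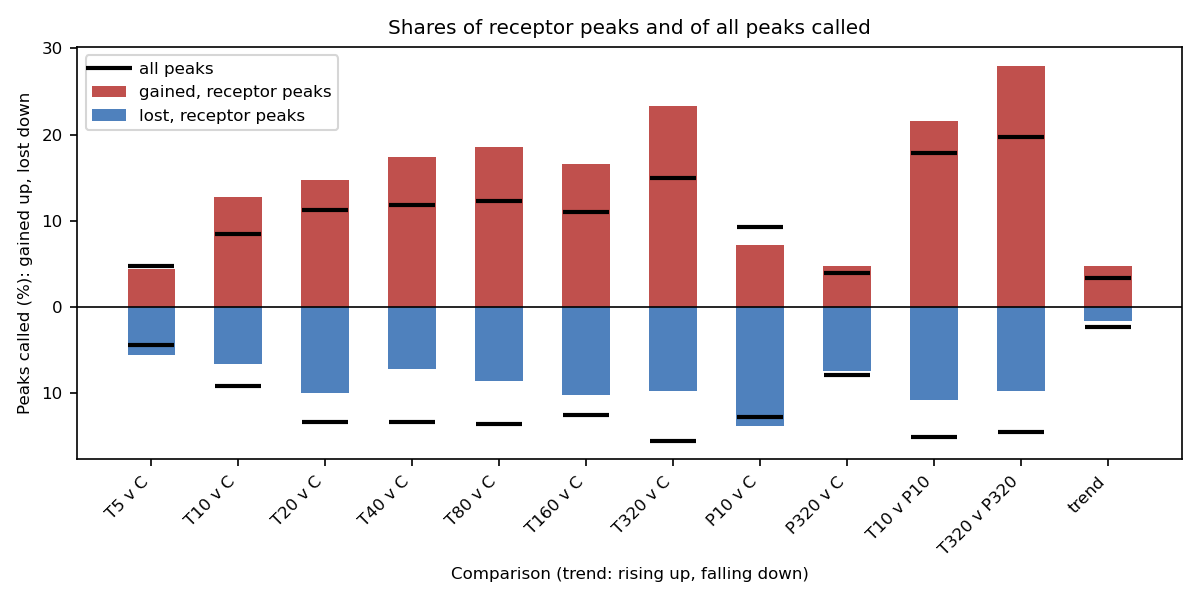
Share of the 361 receptor peaks gained (bars up, %) and lost (bars down, %) in each comparison and in the dose trend, with black dashes at the share of all peaks. The receptor bar for gains passes the dash in every T population from T10 to T320, and in T320 the bar for losses (9.70%) is shorter than the dash (15.5%).

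Calls were also counted by the position of the peak. Among the 260 receptor peaks inside gene bodies, 75 were gained and 29 lost in T320 against C, beside 15.8% and 17.9% of all gene body peaks, and their median log2 fold change was 0.35 against -0.07 for all gene body peaks. The gene bodies had 47 gains (18.1%) and 30 losses (11.5%) with the window shift removed. Over peaks of any position 13.0% were then gained and 12.9% lost. Shares of all peaks by position were not counted in that setting. The shifted counts of gene body, start and flank peaks thus have no like background here. There were 52 peaks within 1 kb of a receptor start, or of either gene end where no start was annotated. Of these 5 were gained and 3 lost (5.95% and 5.75% of all start peaks), and 2 and 0 with the window shift removed. Of 25 peaks in the flanks that lay in no other gene, 0 were gained and 1 was lost (12.9% and 15.5%), and 4 were lost with the window shift removed. In P320, 9 of the 52 start peaks were gained and 0 lost (15.0% and 0.835% of all start peaks), while gene bodies had 7 gains and 24 losses among 260 (2.20% and 8.32%). The flank peaks had 0 gains and 2 losses in P320 (2.59% and 5.70%). The gene positions used give no exons, so peaks inside genes are not divided into exonic and intronic ones.

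A start peak, the one with the highest mean level within 1 kb of an annotated start, was found for 36 of the 43 receptors. The reference gave no annotated start for NR2F6, HNF4G, VDR and NR4A2, so either end of the gene was taken there. A start peak of these genes may therefore lie at the far end. In T320 against C the 5 gained start peaks were those of RXRA, RORB, PPARG, THRB and NR1H2, and the 3 lost ones were all at ESRRG. The highest fold was that of RORB, which encodes the retinoic acid receptor-related orphan receptor beta, a factor of retina and brain. Its peak chr9:74496579-74499164 read 4.76 and 3.21 (C), 6.57 and 5.56 (T5), 9.84 and 9.81 (T10), 12.1 and 19.6 (T20), 16.3 and 19.0 (T40), 17.0 and 16.9 (T80), 12.3 and 12.8 (T160), 18.2 and 20.3 (T320), 5.60 and 5.01 (P10), and 6.71 and 7.39 (P320) CPM. Every adapted library lay above both C libraries, and the P libraries lay between C and T10. The log2 fold change was 2.30 ± 0.24 in T320 (adjusted p = 1.56e-06) and 0.85 ± 0.24 in P320, which was not called, and T320 exceeded P320 by 1.45 ± 0.22 (adjusted p = 3.52e-05). The call in P320 appeared without C replicate 1, at 1.13. RORB had no other peak in its 196 kb gene or in the flanks.

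RXRA encodes retinoid X receptor alpha, a heterodimer partner of many non-steroid receptors. Its gained peak chr9:134378126-134380644 lies at an annotated start inside the gene and read 16.6 and 11.1 (C), 15 and 14.4 (T5), 21.1 and 21.1 (T10), 20.1 and 22.7 (T20), 25.9 and 26.1 (T40), 23.4 and 24.4 (T80), 29.5 and 28.9 (T160), 52.1 and 57.0 (T320), 33.9 and 29.9 (P10), and 34.1 and 36.6 (P320) CPM. The T320 libraries were the highest of all, and those of T5 lay within the range of C. The difference was 1.99 ± 0.19 in T320 (adjusted p = 6.31e-07) and 1.36 ± 0.18 in P320 (adjusted p = 1.05e-04). T320 against P320 gave 0.63 ± 0.18, short of the fold minimum. The other start peaks of RXRA, chr9:134325264-134326253 and chr9:134326724-134329229 near the start of the gene, had 0.07 and 0.35 in T320 and were not called.

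PPARG encodes the peroxisome proliferator-activated receptor gamma, the fatty acid receptor that drives fat cell differentiation. Its start peak chr3:12287890-12289106 was low, at 2.79 and 2.55 (C), 2.07 and 1.95 (T5), 2.70 and 3.36 (T10), 3.50 and 3.42 (T20), 5.10 and 3.21 (T40), 4.92 and 3.93 (T80), 3.66 and 3.03 (T160), 6.51 and 5.87 (T320), 5.47 and 5.06 (P10), and 6.53 and 5.65 (P320) CPM. Both T320 and both P320 libraries lay above C, T320 by 1.21 ± 0.28 (adjusted p = 0.0021) and P320 by 1.19 ± 0.28 (adjusted p = 0.006), and the direct difference was 0.02 ± 0.26. With the window shift removed, T320 gave 0.54 and was not called, and without P320 replicate 1 the P320 value was 1.13 and was not called. THRB, the thyroid hormone receptor beta, had 6.48 and 8.25 CPM in C, 19.9 and 25.8 in T320 and 17.3 and 16.2 in P320 at chr3:24493821-24495762. The groups did not overlap, and the differences from C were 1.63 ± 0.22 and 1.18 ± 0.21. With the window shift removed T320 had 0.64 and was not called. NR1H2, the oxysterol receptor LXR beta, had 14.8 and 20.7 CPM in C, 33.5 and 43.2 in T320 and 16.4 and 14.6 in P320 at chr19:50376053-50377393. Its call in T320, at 1.11 ± 0.23, was lost with the window shift removed (-0.34), without C replicate 1 (0.90) and without T320 replicate 2 (0.91).

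The populations exposed for 9 days had gains at start peaks of other receptors. THRA, the thyroid hormone receptor alpha, read 2.22 and 3.11 (C), 3.20 and 2.61 (T5), 4.15 and 5.28 (T10), 3.91 and 3.47 (T20), 5.00 and 5.00 (T40), 3.65 and 4.43 (T80), 4.22 and 3.97 (T160), 2.74 and 4.75 (T320), 9.92 and 8.50 (P10), and 10.6 and 12.2 (P320) CPM at chr17:40062694-40063711. The 4 P libraries stood above every other library, and those of T320 overlapped C. P10 exceeded C by 1.76 ± 0.28 (adjusted p = 2.11e-04) and P320 by 2.07 ± 0.28 (adjusted p = 1.13e-04). T320 was below P320 by a log2 fold change of -1.57 ± 0.27 (adjusted p = 1.12e-04). NR3C2 encodes the mineralocorticoid receptor, the aldosterone receptor that controls sodium balance. One of its start peaks, which is not the highest, lies at chr4:148444055-148445872 and read 4.60 and 3.72 (C), 4.50 and 3.41 (T5), 5.98 and 5.12 (T10), 6.16 and 4.30 (T20), 7.0 and 6.94 (T40), 7.04 and 6.40 (T80), 7.31 and 5.33 (T160), 6.08 and 7.66 (T320), 11.6 and 10.2 (P10), and 14.2 and 14.8 (P320) CPM. P320 lay 1.81 ± 0.25 above C (adjusted p = 1.14e-04), T320 0.75 ± 0.25, which was not called, and T320 against P320 gave -1.06 ± 0.23 (adjusted p = 0.0011). Start peaks of PPARA (1.30), NR1D2 (1.10), NR2F1 (1.45 at chr5:93583997-93585659) and NR3C1 (1.03) were also gained in P320. PPARA encodes the fatty acid receptor of liver and muscle, NR1D2 the heme-binding clock repressor REV-ERB beta, NR2F1 the orphan receptor COUP-TF1 and NR3C1 the glucocorticoid receptor. A share of 15.0% of all start peaks was gained in P320, so 9 of 52 receptor start peaks is close to the background.

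**Figure D2:**
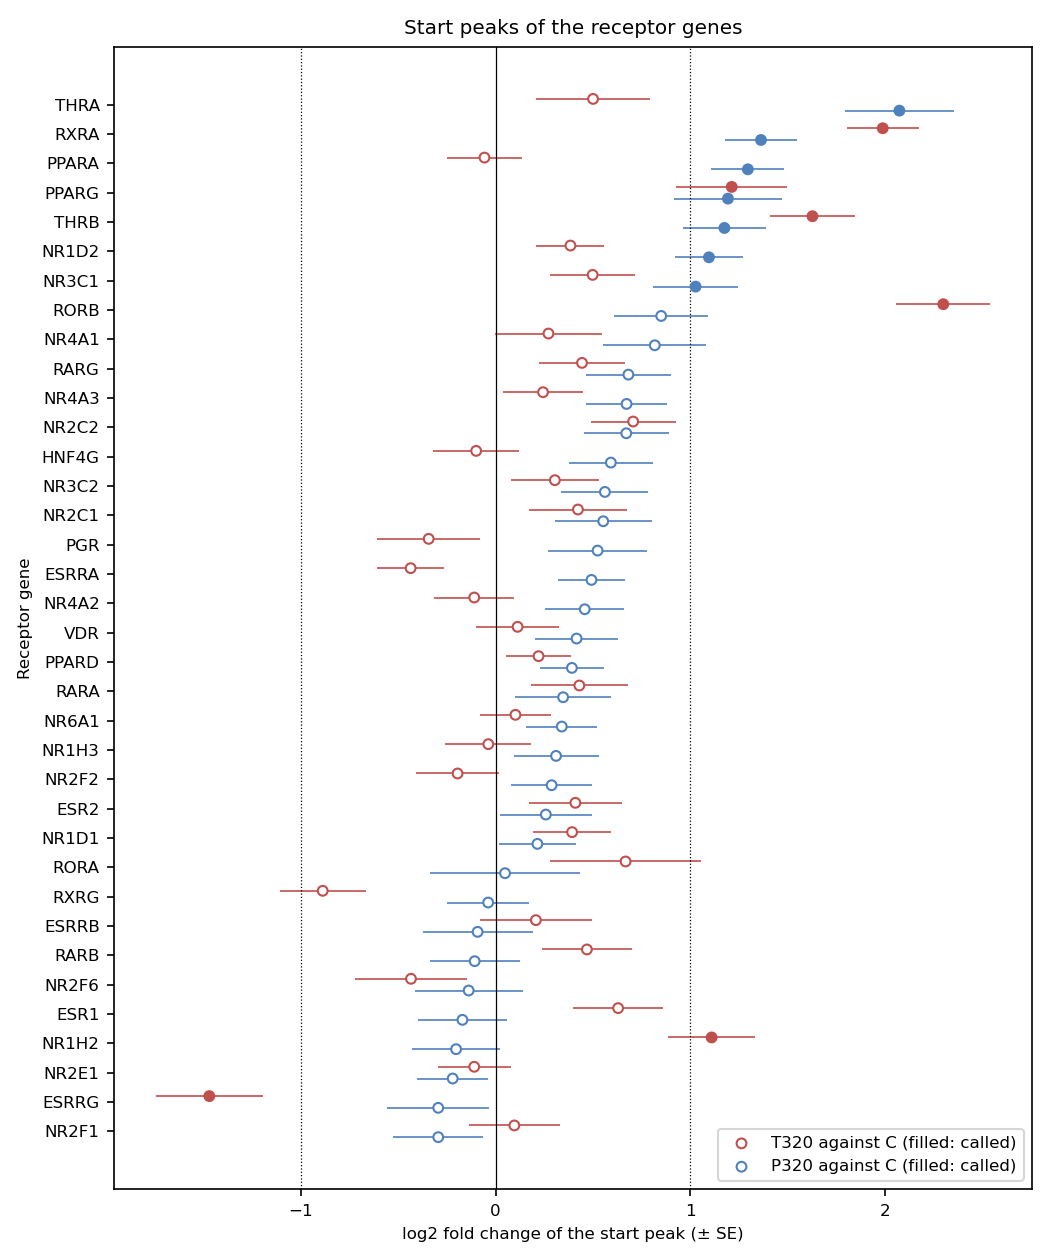
log2 fold change (± SE of the fit) of the highest start peak of each of 36 receptors in T320 against C (red) and P320 against C (blue), with filled points for called peaks and dotted lines at the fold minimum of 1. RORB (2.30) and RXRA (1.99) are farthest to the right among the red points and ESRRG (-1.47) farthest to the left, while THRA (2.07) is the highest blue point.

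The 250 bases upstream of 5 of these annotated starts are shown because their start peaks carried a call in T320 against C or against P320. They come from RefSeq promoters on GRCh38.p14, with 39 of the 43 receptors matched by symbol, and are printed 5′ to 3′ on the strand of the gene. For each gene 1 annotated start within the peak is shown. Capitals mark the receptor core motif AGGTCA (or TGACCT) and the GC box GGGCGG (or CCGCCC), on either strand, with overlapping GC boxes merged.
RORB, chr9:74497085-74497334, plus strand: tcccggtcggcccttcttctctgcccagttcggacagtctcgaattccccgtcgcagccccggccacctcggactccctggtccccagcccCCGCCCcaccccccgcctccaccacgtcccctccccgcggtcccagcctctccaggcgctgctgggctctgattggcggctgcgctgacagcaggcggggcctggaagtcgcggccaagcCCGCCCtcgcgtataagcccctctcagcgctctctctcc
RXRA, chr9:134379045-134379294, plus strand: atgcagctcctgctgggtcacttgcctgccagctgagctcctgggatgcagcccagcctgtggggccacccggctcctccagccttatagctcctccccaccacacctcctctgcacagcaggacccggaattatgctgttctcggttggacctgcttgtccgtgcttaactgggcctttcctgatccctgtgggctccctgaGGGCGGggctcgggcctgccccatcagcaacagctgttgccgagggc
PPARG, chr3:12288810-12289059, plus strand: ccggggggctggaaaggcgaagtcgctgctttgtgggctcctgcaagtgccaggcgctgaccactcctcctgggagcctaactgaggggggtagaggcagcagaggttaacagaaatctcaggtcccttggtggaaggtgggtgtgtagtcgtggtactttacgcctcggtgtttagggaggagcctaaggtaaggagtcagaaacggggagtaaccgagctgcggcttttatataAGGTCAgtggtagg
THRA, chr17:40062715-40062964, plus strand: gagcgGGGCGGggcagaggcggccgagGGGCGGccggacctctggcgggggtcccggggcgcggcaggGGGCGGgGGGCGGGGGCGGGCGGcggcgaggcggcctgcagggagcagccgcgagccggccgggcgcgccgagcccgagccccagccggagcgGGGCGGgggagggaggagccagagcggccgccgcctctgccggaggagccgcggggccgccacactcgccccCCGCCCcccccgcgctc
NR3C2, chr4:148445323-148445572, minus strand: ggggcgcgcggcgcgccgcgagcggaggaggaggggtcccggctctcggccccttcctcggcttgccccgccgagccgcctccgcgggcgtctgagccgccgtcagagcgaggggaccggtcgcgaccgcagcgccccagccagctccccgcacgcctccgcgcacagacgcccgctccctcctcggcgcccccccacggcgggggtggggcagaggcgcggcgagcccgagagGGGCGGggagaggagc
THRA had 8 GC boxes and a GC content of 87.2%, NR3C2 1 and 81.6%, RORB 2 and 72%, and RXRA 1 and 64.4%. PPARG had 0 GC boxes, 1 core motif and a GC content of 57.2%. Over all 35116 RefSeq promoter entries of the same length, 12.08% held the core motif and 42.64% a GC box. Among the 93 entries of the 39 receptors, 14 held the core motif and 45 a GC box. An AP-1 site (TGANTCA) was in 5 receptor entries and 6.573% of all entries, an E-box (CACGTG) in 6 and 6.345%, and a CCAAT box (or ATTGG) in 32 and 32.01%. A match describes the letters in this window and is not a bound site.

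For ESR1, PGR, NR3C1, RARA, VDR, NR2F1, NR2F2, NR2F6, NR4A1 and NR1D1, the highest start peak was called in T320 or P320 only at NR3C1. The estrogen receptor gene ESR1 had 9.85 and 7.97 CPM in C, 11.3 and 15.9 in T320 and 8.05 and 7.69 in P320 at chr6:151804090-151805894, with 0.63 ± 0.23 and -0.17 ± 0.23. The T320 libraries lay above C, but under the fold minimum. Another ESR1 start peak, chr6:151807616-151808684, went the other way, with -0.45 in T320 and 0.32 in P320, and was called in neither. PGR, the progesterone receptor, had 12.9 and 10.9, 11.5 and 7.48 and 16.3 and 17.9 CPM at chr11:101127107-101129863, with -0.34 ± 0.26 and 0.52 ± 0.25. NR3C1 had 35.8 and 53.1, 53.3 and 72.4 and 91.4 and 90.4 CPM at chr5:143402683-143405865, the highest level of these receptors. P320 exceeded C by 1.03 ± 0.22 (adjusted p = 0.0033), a call that total-count scaling (0.96) and the omission of C replicate 1 (0.78) removed. RARA, the retinoic acid receptor alpha, had 15.6 and 23.2, 21.6 and 30.8 and 24.8 and 24.9 CPM at chr17:40317485-40318852, and VDR, the vitamin D receptor, 18.4 and 24.8, 23.4 and 23.5 and 30 and 27.9 at chr12:47903253-47905769. In both the T320 libraries overlapped those of C. The orphan COUP-TF genes NR2F1, NR2F2 and NR2F6 had 0.10, -0.20 and -0.43 in T320. The immediate early receptor gene NR4A1 had 0.27 and the clock repressor gene NR1D1, REV-ERB alpha, 0.39.

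Among the steroid receptors (ESR1, ESR2, PGR, NR3C1 and NR3C2, 61 peaks) 11 peaks (18.0%) were gained and 5 (8.20%) lost in T320, beside 15.0% and 15.5% of all peaks. Removing the window shift gave 6 gained (9.84%) and 10 lost (16.4%), beside 13.0% and 12.9% of all peaks, so the balance of directions turned. In P320, 3 (4.92%) were gained and 10 (16.4%) lost, beside 3.94% and 7.91%. ESR1 had 22 peaks, of which 0 were gained and 8 lost in T5, 4 gained and 2 lost in T320, and 1 gained and 8 lost in P10, where 4.73% and 4.46%, 15.0% and 15.5%, and 9.32% and 12.8% of all peaks were gained and lost. After removal of the window shift ESR1 had 1 gained and 4 lost in T5, 3 and 5 in T320, and 1 and 3 in P10. Over all 105048 peaks 4133 were then gained and 4062 lost in T5, and 10151 and 11008 in P10. An intragenic ESR1 peak at chr6:152094924-152095764 read 3.94 and 2.59 (C), 5.80 and 5.42 (T5), 7.72 and 8.17 (T10), 8.24 and 10.4 (T20), 8.41 and 7.65 (T40), 9.76 and 11 (T80), 11 and 14.2 (T160), 11.7 and 12.4 (T320), 9.53 and 10.7 (P10), and 6.14 and 5.72 (P320) CPM. All T and P libraries lay above C, by 1.92 ± 0.23 in T320 (adjusted p = 6.27e-06), 1.98 ± 0.23 in T160 and 1.66 ± 0.23 in P10. A further one at chr6:151668518-151669356 was gained in T10, with 10.1 and 12.2 CPM against 3.61 and 2.73 in C. In the opposite direction, the peak chr6:151900447-151901818 had 4.45 and 1.72 CPM in T10 against 15.3 and 15.7 in C (-2.39 ± 0.45), and chr6:152017108-152018455 had 1.06 and 0.785 in P10 against 5.99 and 6.65 (-2.77 ± 0.36). ESR1 thus held peaks that moved both ways, and its summed locus did not pass in T320 (-0.18 ± 0.11), though it was called lower with the window shift removed (-0.35, edgeR adjusted p = 0.020).

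PGR had 3 peaks. Its peak inside the gene at chr11:101095891-101097166 read 9.68 and 18.6 (C), 8.88 and 11 (T5), 7.65 and 7.82 (T10), 6.33 and 6.84 (T20), 6.90 and 6.43 (T40), 3.48 and 4.58 (T80), 3.94 and 4.18 (T160), 4.62 and 4.30 (T320), 4.81 and 5.62 (P10), and 8.05 and 7.17 (P320) CPM. All libraries from T10 to T320 lay below both C libraries, and T320 differed by -1.68 ± 0.27 (adjusted p = 7.50e-05). The C libraries differed from each other here by more than those of any other population. The mineralocorticoid receptor gene NR3C2 had a downstream flank peak at chr4:148069905-148071800 that read 16.6 and 22.2 (C), 6.04 and 8.55 (T5), 8.45 and 8.25 (T10), 5.49 and 5.46 (T20), 8.01 and 5.87 (T40), 6.45 and 8.06 (T80), 7.52 and 8.57 (T160), 7.45 and 5.87 (T320), 15.9 and 13.7 (P10), and 18.6 and 19.8 (P320) CPM. All 14 T libraries lay below both C libraries, while P320 overlapped C. The difference was -1.40 ± 0.22 in T5, -1.83 ± 0.23 in T20, -1.51 ± 0.23 in T40 and -1.56 ± 0.23 in T320 (adjusted p = 3.58e-05). NR3C1 had 3 of 14 peaks gained and 0 lost in T320 and 7 gained and 0 lost in T320 against P320 (19.7% and 14.5% of all peaks). These were 2 and 0, and 2 and 1, with the window shift removed. Over all peaks the shares were then 13.0% and 12.9% in T320, and 16.8% and 12.3% in T320 against P320.

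The retinoid receptors (RARA, RARB, RARG, RXRA and RXRG, 63 peaks) had 20 gained (31.7%) and 3 lost (4.76%) peaks in T320, beside 15.0% and 15.5% of all peaks, and 4 gained (6.35%) and 0 lost in P320, beside 3.94% and 7.91%. The T320 counts were 11 gained (17.5%) and 6 lost (9.52%) with the window shift removed, beside 13.0% and 12.9% of all peaks. RARB, a retinoic acid receptor gene often silenced in carcinomas, held 11 of the gains among its 25 peaks, and RXRA 6 among 19. RARA had 3 gained of 11, 1 with the window shift removed, and RARG 0 called of 3. RXRG, the retinoid X receptor of muscle and brain, had 2 lost of 5, and 0 called with the window shift removed. In P10, RARB had 1 gained and 8 lost peaks (9.32% and 12.8% of all peaks), and 5 and 6 with the window shift removed. Over all 105048 peaks 10151 were then gained and 11008 lost. Its peak at chr3:25087850-25089112 had 0.838 and 1.35 CPM in P10 against 4.51 and 6.41 in C, a change of -2.32 ± 0.35, and 3.08 and 4.35 in T320. Another at chr3:25036281-25038049 had 10.4 and 18.6 CPM in T10 against 1.59 and 2.22 in P10 (2.94 ± 0.37).

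The thyroid hormone and vitamin D receptors (THRA, THRB and VDR, 42 peaks) had 20 gained (47.6%) and 1 lost (2.38%) peak in T320, beside 15.0% and 15.5% of all peaks, and 3 gained (7.14%) and 6 lost (14.3%) in P320, beside 3.94% and 7.91%. Removing the window shift gave 10 gained (23.8%) and 4 lost (9.52%) in T320, beside 13.0% and 12.9% of all peaks. All 20 gains were at THRB, which had 28 peaks. THRB gains numbered 4 to 6 from T5 to T20, 10 in T40, 11 in each of T80 and T160, and 22 in T320 against P320. Of all peaks 4.73% to 11.2% were gained from T5 to T20, 11.8% in T40, 12.3% in T80, 11.0% in T160 and 19.7% in T320 against P320. Net of the window shift the THRB gains were 3 in each of T5 to T20, 6 in T40, 8 in each of T80 and T160, and 10 in T320 against P320. An intragenic THRB peak at chr3:24475669-24476289 read 1.89 and 1.51 (C), 1.84 and 2.47 (T5), 2.62 and 3.56 (T10), 1.91 and 3.14 (T20), 5.80 and 7.24 (T40), 4.84 and 8.76 (T80), 7.10 and 9.20 (T160), 9.25 and 17.8 (T320), 1.59 and 1.66 (P10), and 2.01 and 1.97 (P320) CPM. The T40 to T320 libraries lay above every library of C, P10 and P320, and T320 replicate 2 was the highest library. T320 exceeded C by 3.02 ± 0.38 (adjusted p = 7.67e-06). A second one at chr3:24290116-24291396 read 1.72 and 1.93 (C), 5.21 and 6.12 (T5), 5.03 and 6.61 (T10), 6.33 and 5.40 (T20), 4.80 and 6.43 (T40), 5.86 and 6.55 (T80), 6.05 and 6.85 (T160), 9.25 and 10.9 (T320), 0.970 and 1.48 (P10), and 0.882 and 0.446 (P320) CPM. It was above C in all T libraries, by 1.62 ± 0.31 in T5 already, and the P libraries lay below C. T320 exceeded P320 by 3.91 ± 0.33 (adjusted p = 1.43e-07). VDR lost 1 of 7 peaks in T320, and 3 with the window shift removed. Its intragenic peak at chr12:47881801-47883497 had 5.17 and 2.81 CPM in T10 against 13.5 and 14.7 in P10 (-1.85 ± 0.27).

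The clock receptors (NR1D1, NR1D2, RORA and RORB, 40 peaks) repress or activate genes of the circadian oscillator through the same DNA element. They had 16 gained (40.0%) and 4 lost (10.0%) peaks in T320, beside 15.0% and 15.5% of all peaks, and 2 gained (5.00%) and 3 lost (7.50%) in P320, near the 3.94% and 7.91% of all peaks. In T320 the counts were 10 (25.0%) and 4 (10.0%) with the window shift removed, beside 13.0% and 12.9% of all peaks. RORA, the retinoic acid receptor-related orphan receptor alpha, had 29 peaks, with 5 gained in T5, 12 in each of T10 and T20, 16 in T40, 17 in T80, 14 in T160 and 11 in T320. Of all peaks 4.73%, 8.51%, 11.2%, 11.8%, 12.3%, 11.0% and 15.0% were gained in the same order of dose. The peak chr15:60591268-60593188 read 3.20 and 3.77 (C), 3.49 and 2.85 (T5), 6.19 and 5.94 (T10), 6.16 and 6.67 (T20), 11.5 and 7.80 (T40), 7.89 and 8.76 (T80), 5.84 and 5.12 (T160), 11.6 and 11.7 (T320), 12 and 10.9 (P10), and 9.85 and 11.6 (P320) CPM. T320, P10 and P320 stood at a like level above C, by 1.73 ± 0.23, 1.70 ± 0.23 and 1.61 ± 0.23, and T320 against P320 gave 0.12 ± 0.21. The peak chr15:61098414-61099876 read 2.87 and 1.70 (C), 5.27 and 5.70 (T5), 9.18 and 12.2 (T10), 12.1 and 20.3 (T20), 12.3 and 18.7 (T40), 8.23 and 10.7 (T80), 8.51 and 6.95 (T160), 4.88 and 9.14 (T320), 3.18 and 3.18 (P10), and 1.13 and 0.929 (P320) CPM. Its mean was highest in T20 and T40, at 2.88 ± 0.35 and 2.82 ± 0.35 against C. The peak chr15:60710547-60711491 was lost in T320, with 2.74 and 2.24 CPM against 10.1 and 17.4 in C (-2.49 ± 0.36, adjusted p = 3.03e-05) and 8.26 and 10.7 in P320. A RORA peak at chr15:61204952-61206083 had 8.30 and 12.8 CPM in T320 against 0.706 and 1.00 in P320 (3.63 ± 0.37), and one at chr15:61051022-61052028 6.10 and 4.10 in T5 against 1.23 and 1.51 in C (1.86 ± 0.33). The peak chr15:60655050-60655628 was lost in P320, with 0.424 and 0.260 CPM against 2.46 and 1.56 (-2.51 ± 0.49). NR1D2 had 4 of 6 peaks gained in T320 and NR1D1 0 called of 4. An NR1D2 peak at chr3:23965935-23966950 had 5.98 and 9.26 CPM in T10 against 0.970 and 0.392 in P10 (3.49 ± 0.36).

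The estrogen-related receptors (ESRRA, ESRRB and ESRRG, 42 peaks) are orphan receptors that control mitochondrial and oxidative metabolism genes. They had 1 peak gained (2.38%) and 18 lost (42.9%) in T320, beside 15.0% and 15.5% of all peaks, and 0 gained and 3 lost (7.14%) in P320, where 3.94% and 7.91% of all peaks were. Net of the window shift 1 was gained (2.38%) and 9 (21.4%) were lost in T320, beside 13.0% and 12.9% of all peaks. Of the 27 ESRRG peaks 3 were lost in T5, 8 in T10, 12 or 13 from T20 to T80, 18 in T160 and 14 in T320, and 0 were gained in each T population. Losses over all peaks were 4.46% in T5, 9.22% in T10, 13.3% to 13.6% from T20 to T80, 12.5% in T160 and 15.5% in T320. ESRRG also lost 10 in P10 and 3 in P320, beside 12.8% and 7.91% of all peaks. The ESRRG losses net of the window shift were 1 in T5, 3 in T10, 7, 5 and 8 in T20, T40 and T80, 8 in T160, 5 in T320, 4 in P10 and 1 in P320. Losses over all peaks were then 7.83%, 10.9%, 10.7%, 11.4%, 10.7% and 12.9% from T10 to T320 in order of dose. In T5, P10 and P320 they were 4062, 11008 and 6742 of 105048 peaks. The peak chr1:216829899-216831387 read 21.7 and 26.7 (C), 5.86 and 7.62 (T5), 2.55 and 3.99 (T10), 2.41 and 1.05 (T20), 3.20 and 2.09 (T40), 2.55 and 1.21 (T80), 0.773 and 1.10 (T160), 2.57 and 1.17 (T320), 6.31 and 6.15 (P10), and 9.67 and 9.33 (P320) CPM. Every T and P library lay below both C libraries, and every T library lay below both P320 libraries. The change was -1.84 ± 0.35 in T5, -3.86 ± 0.41 in T20, -4.66 ± 0.43 in T160 and -3.78 ± 0.41 in T320 (adjusted p = 1.88e-06). Its start peak at chr1:217076839-217079290 read 27.8 and 44.1 (C), 26.1 and 34.0 (T5), 19.2 and 21.9 (T10), 15.6 and 17.0 (T20), 11.1 and 19.0 (T40), 12.3 and 19.5 (T80), 11.3 and 15.7 (T160), 11.5 and 14.4 (T320), 18.1 and 17.7 (P10), and 28.1 and 30.8 (P320) CPM. The T320 libraries lay below both C libraries, with a difference of -1.47 ± 0.27 (adjusted p = 3.20e-04), and the P320 libraries lay within the range of C (-0.29). With the window shift removed the start peak had -0.95 in T320 and was not called. The peak chr1:216785317-216786292 had 1.80 and 2.02 CPM in T320 against 13.0 and 11.2 in P320 (-2.65 ± 0.26), and chr1:216919207-216920072 had 0.573 and 0.610 in P10 against 4.10 and 4.15 in C (-2.79 ± 0.44).

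ESRRB lost 1 of 12 peaks in each of T5 to T160 and 4 in T320, and gained 4 or 5 in T10 to T80, or 0 or 1 with the window shift removed. Losses over all peaks were 4.46% to 13.6% in T5 to T160 and 15.5% in T320, and gains 8.51% to 12.3% in T10 to T80. With the window shift removed the gains over all peaks in T10 to T80 were 6.62% to 9.92%. The lost peak chr14:76445575-76446959 read 14.4 and 16.1 (C), 3.02 and 2.99 (T5), 3.35 and 1.99 (T10), 2.08 and 3.31 (T20), 4.30 and 2.60 (T40), 3.23 and 2.22 (T80), 2.32 and 2.61 (T160), 3.08 and 1.21 (T320), 7.94 and 8.54 (P10), and 14 and 13.7 (P320) CPM. All T libraries lay below C and below P10, and P320 lay just under C. The change from C was -2.34 ± 0.34 in T5 and -2.92 ± 0.37 in T320 (adjusted p = 8.54e-06). It was -0.14 ± 0.31 in P320, and T320 against P320 gave -2.77 ± 0.37 (adjusted p = 7.66e-06). ESRRA had 0 called of 3 in T320.

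The lipid and bile acid sensors (PPARA, PPARD, PPARG, NR1H2, NR1H3, NR1H4, NR1I2 and NR1I3, 31 peaks) had 7 gained (22.6%) and 1 lost (3.23%) peak in T320, beside 15.0% and 15.5% of all peaks, and 2 gained (6.45%) and 1 lost (3.23%) in P320, beside 3.94% and 7.91%. Removing the window shift gave 4 (12.9%) and 1 (3.23%) in T320, beside 13.0% and 12.9% of all peaks. PPARG had 3 of 3 peaks gained. Its intragenic peak at chr3:12405422-12406783 read 2.71 and 2.78 (C), 3.20 and 2.85 (T5), 6.78 and 6.06 (T10), 7.57 and 8.99 (T20), 7.10 and 9.69 (T40), 12.8 and 10.9 (T80), 11.2 and 12.3 (T160), 11.7 and 17.2 (T320), 5.29 and 6.15 (P10), and 2.05 and 2.04 (P320) CPM. The T10 to T320 libraries lay above C and the P320 libraries below it. T320 exceeded C by 2.40 ± 0.25 (adjusted p = 1.38e-06) and P320 by 2.83 ± 0.25 (adjusted p = 1.68e-07). The second intragenic peak, chr3:12342697-12343841, read 1.81 and 1.84 (C), 2.67 and 2.75 (T5), 5.03 and 7.74 (T10), 6.08 and 10.6 (T20), 10.7 and 12.2 (T40), 9.85 and 15.8 (T80), 8.58 and 9.72 (T160), 9.85 and 12.4 (T320), 2.03 and 1.48 (P10), and 1.24 and 0.966 (P320) CPM, with 2.65 ± 0.33 in T40 and 2.82 ± 0.33 in T80. Here too all T libraries lay above C, and those of P320 below it, though P320 was not called. PPARD, the broadly expressed fatty acid receptor, had 2 gained and 1 lost of 12 in T320. Its peak chr6:35354143-35355055 had 2.26 and 2.53 CPM in P320 against 7.30 and 7.21 in C (-1.60 ± 0.24), and chr6:35369838-35371393 had 10.3 and 9.34 in T10 against 25.0 and 26.3 in P10 (-1.39 ± 0.20). NR1H4, NR1I2 and NR1I3, the bile acid and xenobiotic sensors of liver and gut, had 1 peak each and 0 called in T320.

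**Figure D3:**
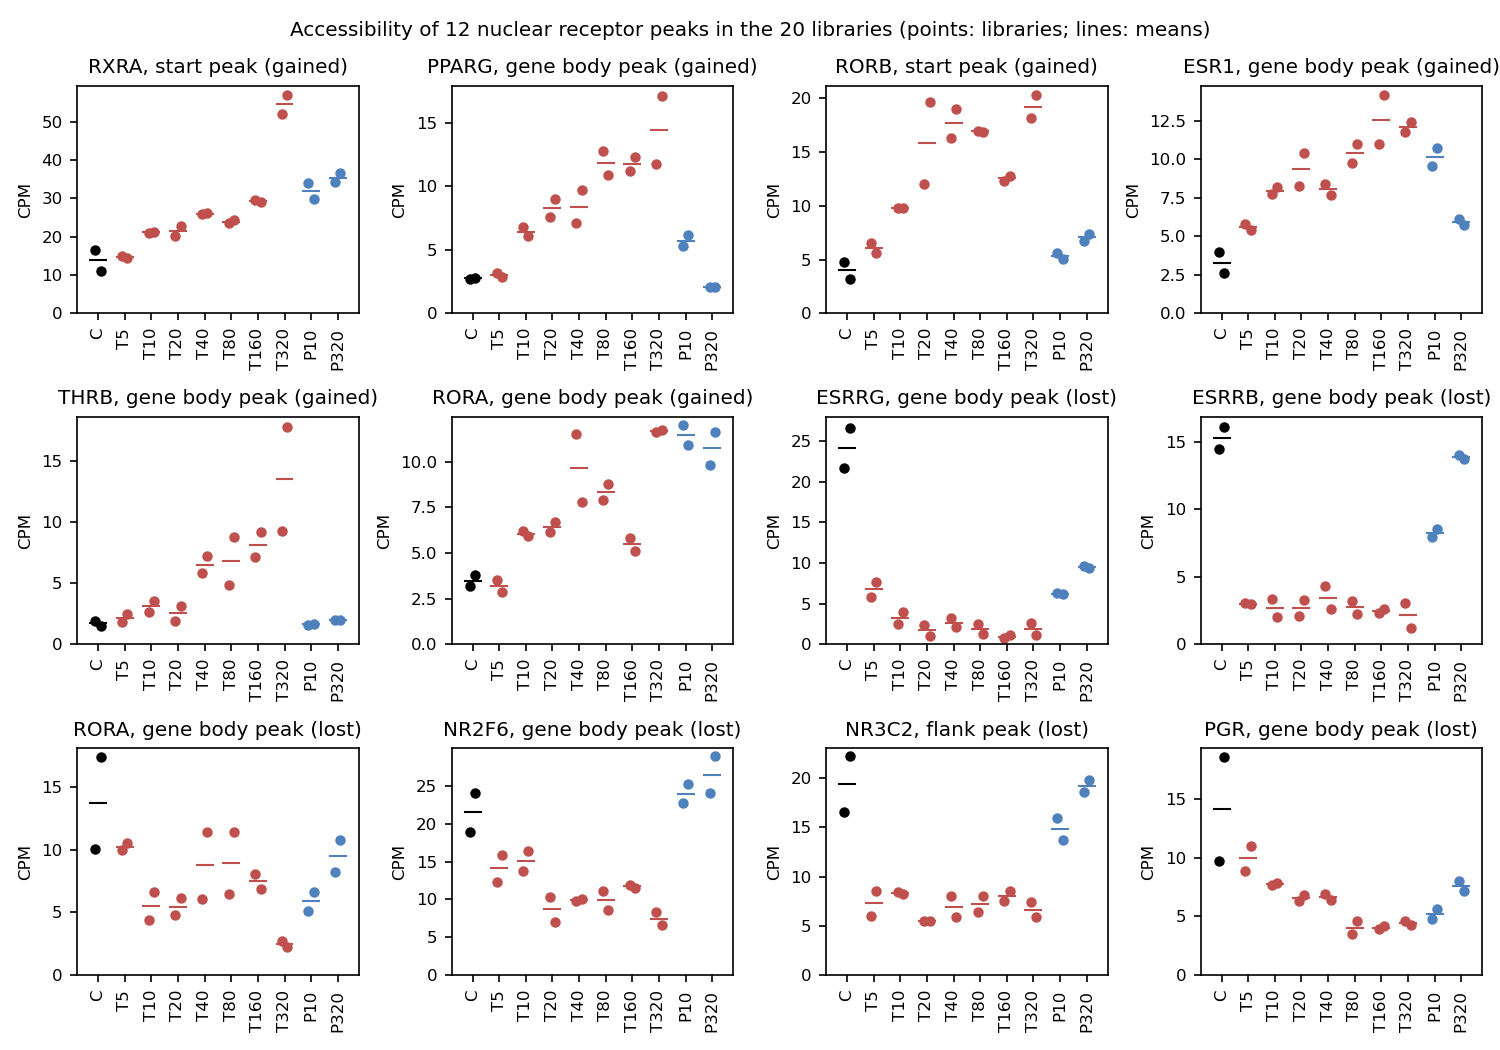
CPM in each of the 20 libraries (points) and the mean of each population (lines) for the 6 gained and 6 lost receptor peaks of smallest adjusted p in T320 against C that kept their call under each alternative. Peaks where T320 and C libraries overlapped were excluded from the choice, so the separation of these groups was fixed by it. The RXRA peak reaches 57.0 CPM in T320, and the ESRRG and ESRRB peaks are below 8 CPM in every T library.

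The HNF4 receptors, factors of liver and gut epithelium, had 2 of 6 peaks gained and 0 lost in T320, both at HNF4G. Of all peaks 15.0% were gained and 15.5% lost. The intragenic HNF4G peak at chr8:75560171-75562092 read 5.17 and 2.40 (C), 6.34 and 4.97 (T5), 12.5 and 13.4 (T10), 15.4 and 21.7 (T20), 15.2 and 20.0 (T40), 16.7 and 18.4 (T80), 12.9 and 12.7 (T160), 12.5 and 16.4 (T320), 3.0 and 2.48 (P10), and 3.39 and 3.53 (P320) CPM. It stood above C from T10 to T320 and within the range of C in the P libraries, with 2.35 ± 0.29 in T20, 2.27 ± 0.29 in T80 and 1.99 ± 0.29 in T320. The COUP-TF receptors (NR2F1, NR2F2 and NR2F6, 15 peaks) had 1 gained and 1 lost in T320 (6.67% each), beside the same 15.0% and 15.5%. The lost peak lay in NR2F6 at chr19:17241631-17243210 and read 18.9 and 24.1 (C), 12.3 and 15.9 (T5), 13.8 and 16.4 (T10), 10.3 and 7.06 (T20), 9.81 and 10.1 (T40), 11.1 and 8.66 (T80), 12 and 11.5 (T160), 8.30 and 6.63 (T320), 22.7 and 25.2 (P10), and 24.1 and 28.9 (P320) CPM. Every T library lay below both C libraries, and the P10 and P320 libraries lay above the lower C library. The change was -1.54 ± 0.23 in T320 (adjusted p = 3.38e-05), and T320 against P320 gave -1.84 ± 0.22 (adjusted p = 3.58e-06).

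The immediate early NR4A receptors had 0 of 12 peaks called in T320, where 15.0% of all peaks were gained and 15.5% lost. NR4A1 had 1 gained in each of T5 to T160, where 4.73% to 12.3% of all peaks were gained. The NR4A1 peak gained in T10, chr12:52027023-52027587, had 8.96 and 7.97 CPM against 2.79 and 1.70 in C (1.95 ± 0.28) and 4.79 and 3.85 in T320. NR5A1, NR5A2 and NR6A1, orphan receptors of steroid-producing tissue and germ cells, had 5 gained (11.9%) and 2 lost (4.76%) of 42 in T320. NR6A1 had 11 of 32 gained and 0 lost in T10 against P10 (all peaks 17.8% and 15.1%). In T320 against P320 NR6A1 had 11 gained and 1 lost (all peaks 19.7% and 14.5%). Its peak chr9:124694748-124697106 had 21.9 and 23.0 CPM in T10 against 8.37 and 3.35 in C (1.99 ± 0.29), and C replicate 1 was over 2 times C replicate 2. The peak chr9:124669097-124669975 had 10.6 and 15.2 in T10, 1.32 and 1.44 in P10, 1.73 and 1.78 in P320 and 4.35 and 5.56 in C, so that P320 was below C (-1.50 ± 0.28) and T10 above P10 (3.22 ± 0.29). The testicular receptors NR2C1 and NR2C2 had 1 gained of 6 in T320 (16.7%), near the 15.0% of all peaks, and NR2E1 and NR2E3 0 called of 4. A flank peak of NR2C1 at chr12:95077222-95078158 had 2.99 and 2.31 CPM in T10 against 7.10 and 7.58 in P10 (-1.49 ± 0.26).

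**Figure D4:**
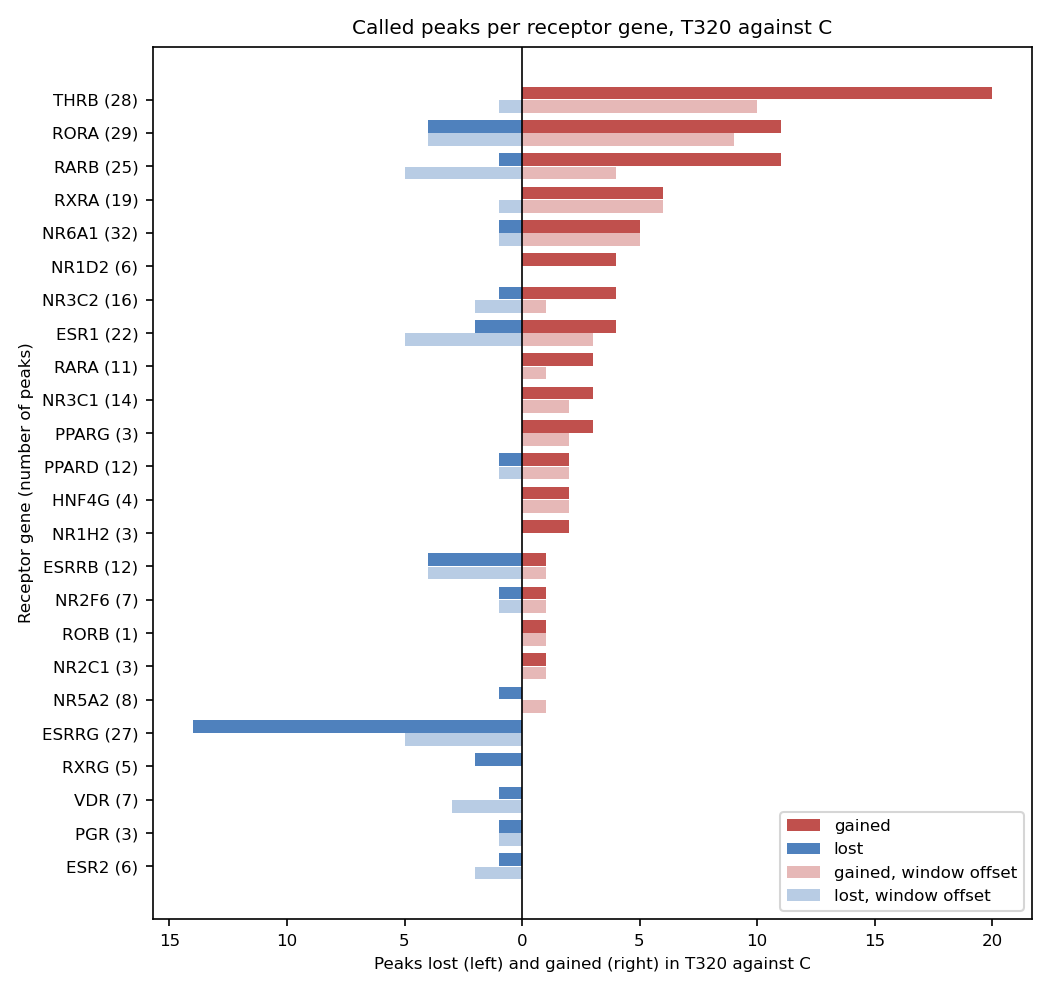
Number of peaks gained (right) and lost (left) in T320 against C at each receptor gene with a call, with the number of its peaks in brackets. Pale bars give the counts after the median shift of each 5 Mb window was removed. THRB (20 gained) and ESRRG (14 lost) have the longest bars, which shorten to 10 and 5 in the pale set.

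Many gains lay in 1 stretch of chromosome 3. NR1D2, THRB and RARB are neighbours between positions 23945286 and 25597932, and their 59 peaks held 35 of the 84 gains and 1 of the 35 losses in T320. The other 302 receptor peaks had 49 gained (16.2%) and 34 lost (11.3%), beside 15.0% and 15.5% of all peaks. In T320 against P320 the 3 neighbours had 39 gains and 1 loss, and the others 62 gains (20.5%) and 34 losses (11.3%), where all peaks had 19.7% and 14.5%. The other peaks within the same 5 Mb windows had median log2 fold changes in T320 of 0.88 around THRB, 0.96 around NR1D2 and 1.11 around RARB. For each gene only its own peaks were left out, so peaks of its receptor neighbours count among these. The window shift was a median over all peaks of a window, receptor peaks included. Around NR1H2 the median was 1.51, with 76.9% of the other peaks gained, around PPARG 0.68, around RORB 0.26 and around RXRA 0.13. In a shift shared by a whole window, DNA copy number and accessibility cannot be told apart in these counts. With the window shift removed THRB had 10 gained and 1 lost, RARB 4 and 5, NR1D2 0 and 0, RXRA 6 and 1, RORA 9 and 4, PPARG 2 and 0, and ESRRG 0 and 5. Of all peaks 13.0% were then gained and 12.9% lost.

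Summed over each locus, 16 receptors were higher and 7 lower in T320 than in C at an adjusted p under 0.05 over 17857 protein-coding loci (edgeR quasi-likelihood test, no fold minimum), where 22.4% and 23.0% of all loci were. The median log2 fold change was 0.27 over the receptors and 0.07 over all loci. Net of the window shift 5 receptor loci were higher and 7 lower (11.5% and 12.1% of all loci), with medians of -0.02 and 0.02, so that lower loci outnumbered higher ones. The 4 highest were RORB (2.30 ± 0.23), PPARG, THRB and NR1H2. PPARG summed to 7.30 and 7.17 (C), 7.94 and 7.55 (T5), 14.5 and 17.2 (T10), 17.1 and 23.0 (T20), 22.9 and 25.1 (T40), 27.6 and 30.6 (T80), 23.5 and 25.1 (T160), 28.1 and 35.4 (T320), 12.8 and 12.7 (P10), and 9.81 and 8.66 (P320) CPM, and T320 exceeded C by 2.14 ± 0.18 (adjusted p = 3.31e-07). THRB summed to 115 and 132 (C), 146 and 160.5 (T5), 142 and 165 (T10), 139 and 169 (T20), 169 and 205 (T40), 191 and 239.7 (T80), 204 and 228 (T160), 301 and 409 (T320), 105 and 104 (P10), and 113 and 109 (P320) CPM, with 1.53 ± 0.16 in T320 (adjusted p = 2.58e-06). The P320 libraries lay above C at PPARG and just below C at THRB, and T320 exceeded P320 by 1.79 ± 0.17 and 1.68 ± 0.16. NR1H2 had 43.4 and 62.2 CPM in C and 99.1 and 129.5 in T320 (1.11 ± 0.18). With the window shift removed THRB kept its call at 0.54, and NR1H2 turned to -0.34, called lower.

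The 4 lowest loci were ESRRG, RXRG, PGR and NR5A2. ESRRG summed to 231 and 288 (C), 187 and 217 (T5), 139 and 143 (T10), 116 and 102 (T20), 105 and 119 (T40), 107 and 121 (T80), 83.5 and 95.2 (T160), 103 and 117 (T320), 164 and 164 (P10), and 233 and 221 (P320) CPM. Every T library lay below both C libraries, the P320 libraries lay close to the lower C library, and the difference in T320 was -1.23 ± 0.13 (adjusted p = 2.64e-06) and against P320 -1.04 ± 0.13 (adjusted p = 7.19e-06). RXRG had 32.0 and 31.4 CPM in C, 19.3 and 13.6 in T320 and 32.6 and 31.7 in P320 (-0.96 ± 0.21). PGR had 25.2 and 32.2, 17.8 and 12.3 and 27.2 and 27.1 CPM (-0.95 ± 0.19). NR5A2, the orphan receptor LRH-1, had 68.8 and 83.1, 48.1 and 58.9 and 76.5 and 74.0 CPM (-0.50 ± 0.15). The T320 libraries of all 4 lay below those of C. With the window shift removed ESRRG had -0.72 and kept its call, RXRG had -0.18 and NR5A2 0.27, neither called. NR5A2 also lost its call when C replicate 2 (-0.36) or T320 replicate 1 (-0.37) was left out.

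In P320 against C 11 receptor loci were higher and 1 lower (25.2% and 3.39% of all loci), with median log2 fold changes of 0.20 over the receptors and 0.23 over all loci. RORB (0.85), NR2F1 (0.68) and NR4A3 (0.67) led, and ESR1 was the lower one at -0.38 ± 0.11. RORB was not called without C replicate 2 (0.57), without P320 replicate 2 (0.78) or with DESeq2 (0.58). NR4A3 was not called without C replicate 1 (0.38) or P320 replicate 1 (0.64), and had 1.05 without C replicate 2. NR2F1 had 0.41 with DESeq2. ESR1 was not called with the window shift removed (-0.14) or without C replicate 2 (-0.34), P320 replicate 1 (-0.36) or P320 replicate 2 (-0.39), and had -0.65 with DESeq2. T320 against P320 had 11 higher and 10 lower (14.7% and 36.9%), with medians of 0.04 and -0.22, and 6 and 12 with the window shift removed, with medians of -0.21 and -0.18. With DESeq2 scaling the median of all loci in P320 was -0.04, and 6 receptor loci were higher and 12 lower than in C, so the balance of directions in P320 turned with the scaling. Counts of loci also moved with single libraries. T320 against C had 8 higher loci without T320 replicate 2, and 4 lower ones without each of C replicate 2, T320 replicate 1 and T320 replicate 2. P320 against C had 4, 5 and 4 higher loci without C replicate 1, P320 replicate 1 and P320 replicate 2, and 0 lower ones without C replicate 2 or either P320 replicate. T320 against P320 had 6 lower loci without P320 replicate 1 and 5 without T320 replicate 1.

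**Figure D5:**
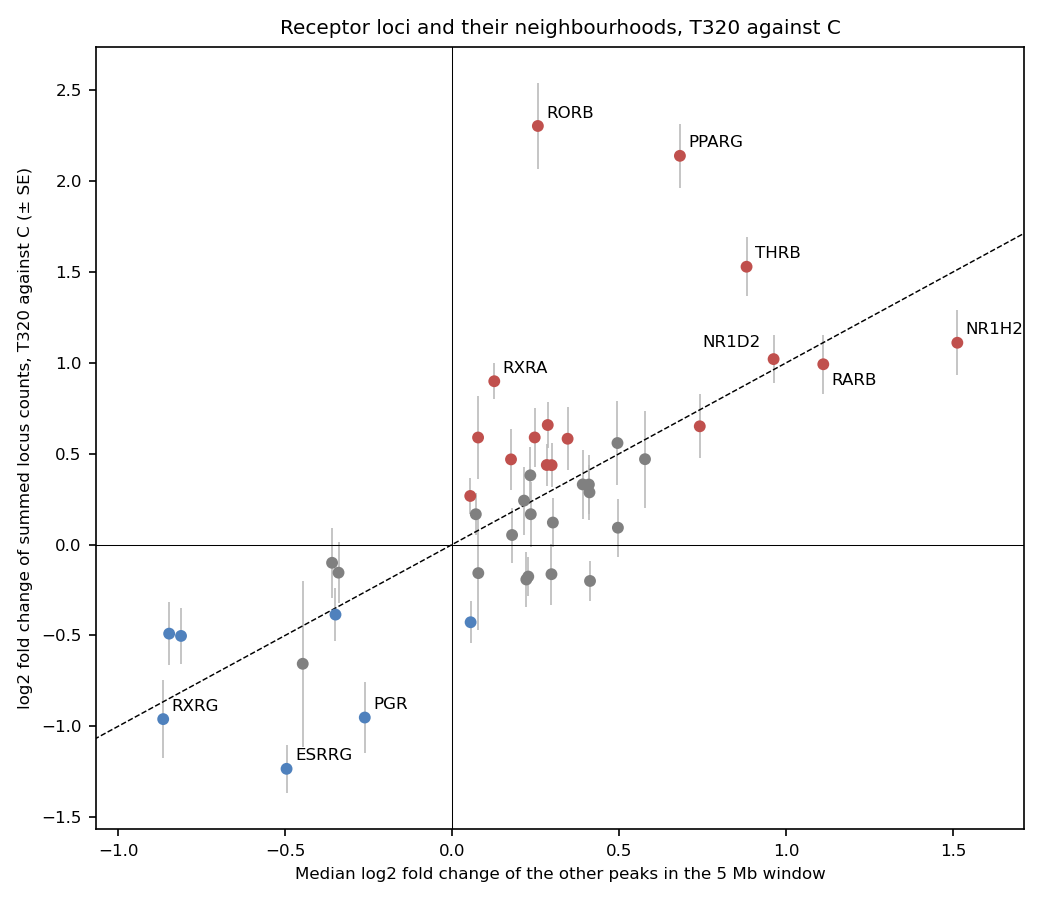
log2 fold change (± SE) of the summed counts of each receptor locus in T320 against C, against the median log2 fold change of the other peaks in its 5 Mb window, with a dashed line where both are equal. RORB (2.30 at 0.26) and RXRA (0.90 at 0.13) lie above their windows, RARB (0.99 at 1.11) lies beside its window, and NR1H2 (1.11 at 1.51) lies below it.

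A trend over the 7 adapted populations was fitted as a slope in log2 units of accessibility per log2 unit of dose, and called at an adjusted p under 0.05 and an absolute slope of at least 0.25. Of the 361 receptor peaks 17 rose and 6 fell with dose, beside 3.37% and 2.35% of all peaks. THRB had 7 of the rising peaks, RARB 4, RXRA 2, and ESR1, NR3C1, PPARD and PPARG 1 each. ESRRG had 5 of the falling ones and ESR2 1. Without the 3 neighbours on chromosome 3 the rise stood at 6 of 302 (1.99%). The intragenic THRB peak at chr3:24475669-24476289, whose values are given above, had a slope of 0.44 ± 0.06 (edgeR adjusted p = 0.0041). It was the only 1 of the 17 that met the full rule for named peaks. That rule asks for at least 2 CPM, no overlap of T320 and T5 libraries, and call and size held under each alternative. The rising peaks were 9 (2.49%) with the window shift removed, beside 3068 of all 105037 peaks, so the receptor share was then below that of all peaks. Without population T320 there were 3, beside 640 of 105040. The falling ones were 2 without population T5 (1129 of 105043 over all peaks). They were 3 without replicate 1 of each population (2497 of 104660).

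Genes that work with the receptors were read at their start peaks, where 5.10% of the start peaks of all genes were gained and 4.98% lost in T320, and 15.3% and 0.544% in P320. Of the coactivators, which acetylate or remodel chromatin at bound receptors, 10 of 12 had a start peak. In T320 1 was gained and 0 lost, namely KAT2B (1.16 ± 0.22), an acetyltransferase whose call was lost with the window shift removed (0.17) and without T320 replicate 2 (0.93). In P320 3 were gained, among them CREBBP, the acetyltransferase CBP, with 29.1 and 27.2 CPM against 10.8 and 10.1 in C (1.43 ± 0.25). Of the corepressors, 10 of 11 had a start peak, with 0 called in T320 and 3 gained in P320. LCOR, a ligand-dependent corepressor, had 29.6 and 28.5 CPM in P320 against 10.0 and 11.3 in C (1.44 ± 0.19), and TBL1XR1, an exchange factor of the NCOR complex, 17.3 and 15.3 against 6.07 and 5.99 (1.44 ± 0.23). The P320 libraries lay above both C libraries at CREBBP, LCOR and TBL1XR1. In T320 against P320 0 corepressors were gained and 3 lost, beside 3.12% and 20.6% of the start peaks of all genes, with -2.25 ± 0.24 at TBL1XR1 and -1.57 ± 0.24 at NCOR1, whose peak is shared with PIGL.

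Known target genes had 0 or 1 call per list in T320, except the liver X receptor targets given below. Glucocorticoid receptor targets had 0 of 10 called in T320 and in P320, with medians of 0.54 and 0.56. The medians over the start peaks of all genes were 0.12 and 0.41. Estrogen receptor targets had 0 of 10 called in T320 (median -0.13), 1 gained in P320 and 4 lost in T320 against P320, where 20.6% of the start peaks of all genes were lost. The gained one was IGFBP4, whose call was lost with total-count scaling (0.94), with the window shift removed (0.86) and without C replicate 2 (0.84). The lost ones included GREB1 at -1.55 ± 0.22, which was not called with the window shift removed (-0.88). Retinoid genes (12 of 14 with a start peak) had 0 gained and 1 lost in T320, 2 gained in P320 and 1 gained and 5 lost in T320 against P320 (3.12% and 20.6% of all start peaks). The one lost in T320 was CRABP2, a retinoic acid carrier, with 18.3 and 15 CPM against 44.6 and 40.9 in C (-1.36 ± 0.20), not called with the window shift removed (-0.71). ALDH1A2, which makes retinoic acid, had 8.56 and 7.26 CPM in T320 and 34.7 and 27.9 in P320 (-1.99 ± 0.20). The T320 and P320 libraries of ALDH1A2 lay on either side of C.

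Liver X receptor targets (8 of 10) had 2 gained and 1 lost in T320, beside 5.10% and 4.98% of the start peaks of all genes. ABCG1, a sterol exporter, had 8.05 and 15.7 CPM against 4.35 and 3.11 in C (1.71 ± 0.34), and 1.13 without T320 replicate 2. APOE, a lipoprotein, had 9.76 and 7.89 against 32.3 and 30.5 (-1.84 ± 0.19), and -1.06 with the window shift removed. FASN, the fatty acid synthase, had 68.1 and 69.3 CPM in P320 against 24.3 and 24.8 in C (1.48 ± 0.18) and 20.2 and 24.9 in T320. PPAR targets (6 of 10) had 0 gained and 1 lost in T320, namely PLIN2, a lipid droplet coat protein, with 5.39 and 2.64 CPM against 12.9 and 14.7 (-1.83 ± 0.35). At PPARG itself all 3 peaks were gained in the same libraries. Vitamin D receptor targets (6 of 8) had 0 gained and 1 lost in T320, SPP1, whose call was lost with the window shift removed (-0.61), without C replicate 2 (-0.72) and without T320 replicate 2. Constitutive promoters (11 of 12) had 0 called in T320 and in P320, with medians of 0.19 and 0.24.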

How the data were processed

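The deposited values are raw counts per consensus peak, whole numbers as per the file headers and values, for 20 libraries. The submitters' processing notes name the build GRCh38 and, with no order or settings, MACS2, DESeq2, deepTools 3.1 and 3.5.1, HOMER 4.1, Bowtie2, SAMtools, Picard and Trim Galore. Whether peak starts count from 0 or 1 is not given in the sources used here. Another 8 samples of the T320 population with and without drug were not analysed here.

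Counts of all 105048 peaks were tested with edgeR 4.0.16 (R 4.3.3, quasi-likelihood, robust, TMM scaling) over all 10 groups, with p-values adjusted over all peaks by Benjamini-Hochberg. The low-count filter removed 0 peaks. SE was the log2 fold change divided by the square root of F. Locus tests used counts summed over each gene and 10 kb on either side. The dose trend used the summed replicates of the 7 T populations. The code was checked on simulated counts. Alternatives were total-count scaling, a filter at 2 CPM in 2 libraries, no filter, the median shift of 5 Mb windows, a replicate block, DESeq2 1.42.0, and leaving out libraries or populations. Named peaks were those of smallest adjusted p that kept call and size under every alternative, 1 per gene, up to 6 per direction in T320 against C and 3 elsewhere. They also had to reach a level of 2 CPM, and peaks where libraries of the compared groups overlapped were passed over. Separation of the compared groups at a peak picked this way was thus fixed by the choice and is not a further result. The start peaks of 12 receptors, the 4 highest and 4 lowest loci and up to 2 genes per list and comparison were named too, and other receptors by their start peak. The receptors and lists were chosen with earlier results of these data known.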

Additional observations from a re-analysis of the deposited data

Results flagged for a closer look

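At 4 of the 361 receptor peaks (1.11%) T320 was gained and P320 lost against the same C libraries, beside 1.23% of all peaks, so the count is near the background. The reverse pattern was found at 0 receptor peaks. Its share over all peaks was not counted, so no reading of that 0 is given. Because the peaks were picked for these opposite calls, the differences of T320 and P320 below are descriptions, given with no test. Of the 4 peaks 3 lie at THRB, in the stretch of chromosome 3 whose windows had medians above 0 in T320. The THRB peak chr3:24352814-24353613 had log2 fold changes of 2.14 in T320 and -2.43 in P320, a difference of 4.57 ± 0.50. It read 0.821 and 2.03 CPM in C, 5.65 and 7.44 in T320 and 0.282 and 0.260 in P320. The THRB peak chr3:24290116-24291396 had 2.45 and -1.45, a difference of 3.91 ± 0.33. The THRB peak chr3:24479975-24481311 had 2.52 and -1.52, a difference of 4.04 ± 0.35, and read 3.04 and 2.55 CPM in C, 13.6 and 18.1 in T320 and 0.953 and 0.966 in P320. The NR3C1 peak chr5:143279697-143280602 had 1.40 and -1.62, a difference of 3.02 ± 0.41, and read 1.89 and 3.11, 5.14 and 8.25 and 1.06 and 0.594 CPM. All 4 lie inside their genes. At each of them both T320 libraries lay above and both P320 libraries below the C libraries.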

How the results depend on the processing

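With the median shift of each window removed, gained receptor peaks numbered 28 in T10, 40 in T40, 38 in T160, 52 in T320 and 62 in T320 against P320, lost ones 32 in P10 and 13 in T5, and rising ones 9. Over all 105048 peaks 11008 were then lost in P10 and 4062 in T5, and 3068 of 105037 rose. Without the NR1D2, THRB and RARB loci, an alternative chosen after seeing the data, T320 had 49 gains and T320 against P320 62. Higher loci with the window shift removed were 5 in T320 against C and 6 against P320, and lower loci in P320 were 2. Directions reversed there at NR1H2 (locus -0.34 and -0.29, start peak -0.34 and -0.055, against C and P320), NR5A2 (0.27 and 0.18) and RARB (-0.040 and -0.13). They also reversed at NR1D2 (-0.75, T320 against P320), NR1I3 (0.29) and NR2C2 (-0.023). Total-count scaling gave 11 losses in T5 and 6 lower loci in P320. DESeq2 gave 6 higher and 12 lower loci in P320, and 20 higher in T320 against P320. Trend counts were 3 rising without population T320 and 2 falling without population T5. The cause was not tested. With the replicate number as a block, loci were 17 higher and 3 lower in P320, 21 and 7 in T320, and 14 and 15 in T320 against P320, and gained and lost peaks 85 and 41 in T320 and 100 and 38 in T320 against P320. At each peak the difference in log2 level between replicates 1 and 2 was taken within each population. Over all peaks these differences correlated at 0.194 to 0.407 between C and each T population. In comparisons with P the correlations were -0.0986 to -0.0122. The TMM factor of replicate 1 exceeded that of replicate 2 in C and in each T population (1.074 and 0.955 in C, 1.078 and 0.946 in T320). The labels do not say what a number marks, and each population has only 2 libraries. The correlations are thus at most a hint of pairing among C and T only. Replicate 1 also had fewer total counts than replicate 2 in C and in each T population (11347046 and 22218981 in C). The totals were close in P10 (22184883 and 22437074) and P320 (29699950 and 27936456). Pairing and depth cannot be told apart here.

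Leaving out 1 library gave, as lowest and highest gained counts, 4 and 21 (T5), 26 and 51 (T10), 34 and 56 (T20), 53 and 68 (T40), 49 and 72 (T80), 42 and 62 (T160), 70 and 89 (T320), 17 and 43 (P10), 14 and 18 (P320), 62 and 88 in T10 against P10, and 83 and 105 in T320 against P320. Lost counts were 3 and 16, 11 and 28, 21 and 40, 17 and 33, 20 and 33, 21 and 37, 25 and 43, 23 and 56, 9 and 31, 17 and 48, and 30 and 46 in the same order. Higher loci were 8 and 20 in T320 against C, 4 and 15 in P320 against C and 8 and 13 in T320 against P320, and lower loci 4 and 7, 0 and 1, and 5 and 10. For the dose trend, replicate 1 or replicate 2 was left out of every population at once. The lowest and highest counts were then 13 and 19 rising peaks and 3 and 4 falling ones. With 2 libraries per group, 28 of 84 gains and 16 of 35 losses in T320 met the rule for named peaks. That rule asks for at least 2 CPM, libraries that do not overlap, and the same call and size under every alternative run. The other peaks may have failed any part of it.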
